A study of Mus musculus with 18 samples.

Results

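Plasmin is made from plasminogen by a pair of secreted serine proteases, tissue-type plasminogen activator (Plat) and urokinase-type plasminogen activator (Plau). Plaur is the cell-surface receptor that holds urokinase at the membrane, and Serpine2 (protease nexin-1) is a secreted and matrix-bound serpin that inhibits both activators, plasmin and thrombin. Plasmin degrades fibrin and matrix glycoproteins and activates matrix metalloproteinases, and the system is best known in the mammary gland for remodelling when milk secretion ends. These 4 genes were examined out of the 31053 features counted. They were chosen by their raw counts per library and class of cell, so their levels are described here with no test of significance.

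Single-cell RNA libraries were made with 10x Genomics 3′ chemistry from 17 mouse mammary preparations. C57BL/6 mice gave the mammary rudiment at embryonic day 18.5 (E18.5), from embryos carrying an Lgr5-GFP knock-in allele used to find the rudiments, the gland at postnatal day 5 and, labelled pre-puberty, at 2.5 weeks, and the virgin adult gland at 10 weeks. C57BL/6 E-cadherin-GFP females of 5 weeks, dissected under the GFP signal, gave the terminal end buds (TEBs) and, as another library, the ducts. Virgin SWISS adults of 10 weeks gave 1 library. FVB/NJ virgin adults of 10 weeks gave the libraries A10, P7 and D12. Pregnant FVB/NJ mice gave H and G at day 12.5, then F4 and B4 at day 18.5 of gestation. F11 and D6 came from lactating FVB/NJ mice 10 days after birth, and 1 FVB/NJ library was post-involution, labelled 3 weeks post birth. Each library pooled several animals. Cells of the blood and endothelial lineages had been depleted by sorting, so the immune and endothelial cells described below are those that escaped the sort. The sort also selected for epithelial cells by surface markers, so the fibroblasts and other non-epithelial cells below were not its target either.

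Libraries held 9920346 (P7) to 93234616 (D6) unique molecular identifiers (UMIs), and 123574 of 140187 barcodes passed the study's quality limits. P7 stood apart, with 14-base rather than 16-base barcodes and the lowest median depth, 2498 UMIs per cell, and D6 and F11 kept 68.9% and 48.6% of barcodes against at least 86.2% elsewhere. Any 2 libraries shared at most 253 barcodes. Cells were put into classes by marker genes that did not include the 4 genes: basal (Krt5, Krt14, Krt17 and Trp63, with contractile genes such as Acta2 or luminal keratins also detected), luminal progenitor (LP)/alveolar (such as Elf5 and Csn3), mature luminal (ML, such as Prlr and Esr1), fibroblast, mural, immune, endothelial and Schwann, each name meaning cells like that type by these markers. All 9 basal markers were detected in the basal class of every library, with a summed level of 2532 CPM (counts scaled to 1000000 UMIs of the class) at E18.5 and 6616 to 46274 CPM elsewhere. In the TEB library 63.6% of gated basal cells were also basal by clustering, against 71.3% at postnatal day 5, 86.6% at E18.5 and more than that in each of the other 14 libraries.

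Plat lies on chromosome 8 (22757727 to 22782844, plus strand), Plau on chromosome 14 (20836660 to 20843385, plus strand), Plaur on chromosome 7 (24462484 to 24475968, plus strand) and Serpine2 on chromosome 1 (79794197 to 79861180, minus strand) of GRCm38, as annotated in GENCODE M21. The coding stretches below show the working parts of the 3 secreted proteins, 5′ to 3′ on the coding strand. In the activators the capitals mark the codon of the catalytic serine, which cuts plasminogen. In the inhibitor they mark the codons of the arginine and serine that flank the bond offered as bait to the protease.
Plat: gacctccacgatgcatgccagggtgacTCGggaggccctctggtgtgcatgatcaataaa
Plau: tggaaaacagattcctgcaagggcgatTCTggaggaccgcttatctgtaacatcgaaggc
Serpine2: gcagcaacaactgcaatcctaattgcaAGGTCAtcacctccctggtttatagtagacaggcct

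The Plat stretch joins exon 13 (22780569 to 22780589 on chromosome 8) to exon 14 (22781948 to 22781986), and the Plau stretch joins exon 10 (20841074 to 20841094 on chromosome 14) to exon 11 (20842274 to 20842312). The activators are split at the same place, 21 bases into each stretch, and 32 of the 60 bases were identical between them. The Serpine2 stretch joins exon 7 (79799468 to 79799477 on chromosome 1) to exon 8 (79796857 to 79796909). The libraries read the 3′ end of transcripts, so none of these stretches was itself measured.

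In basal cells of the C57BL/6 series, Serpine2 was highest and Plat low in the earliest libraries and TEBs, and the order was the reverse in ducts and the adult. Serpine2 was 278 CPM at E18.5, 186 CPM at postnatal day 5, 40.2 CPM before puberty, 138 CPM in TEBs, 19.8 CPM in ducts and 14.0 CPM in the adult. Plat was 5.07 CPM at E18.5, 7.89 CPM at postnatal day 5, 8.79 CPM before puberty, 4.05 CPM in TEBs, 31.9 CPM in ducts and 67.4 CPM in the adult. Serpine2 was thus 19.9-fold higher at E18.5 than in the adult (95% counting interval 17.1 to 23.1), whereas Plat was 13.3-fold higher in the adult than at E18.5 (11 to 16.1). The basal cells compared were not alike in their markers. The median of their mean log2 contractile level was 0.153 at E18.5 and 3.36 in the adult, and that of luminal keratins 1.76 and 1.26. At E18.5 another 2501 cells were left in no class, beside 2844 basal cells. The early level of Serpine2 was not particular to basal cells, since LP/alveolar cells held 341 CPM at E18.5 (58 cells), 191 CPM at postnatal day 5 and 30.4 CPM before puberty. The E18.5 LP/alveolar class was poorly resolved. Of its 58 cells 28 lay near the cut between classes, and clustering put 0% of them in an LP/alveolar cluster. Summed fibroblast markers in the basal class were 214 CPM at E18.5, 155 CPM at postnatal day 5 and 49.7 CPM before puberty. They were 65 CPM in TEBs, 235 CPM in ducts and 373 CPM in the adult, and their part in the Plat values was not tested. Each of these stages was a single library, so the intervals cover counting error alone and stage cannot be told apart from library.

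**Figure D1:**
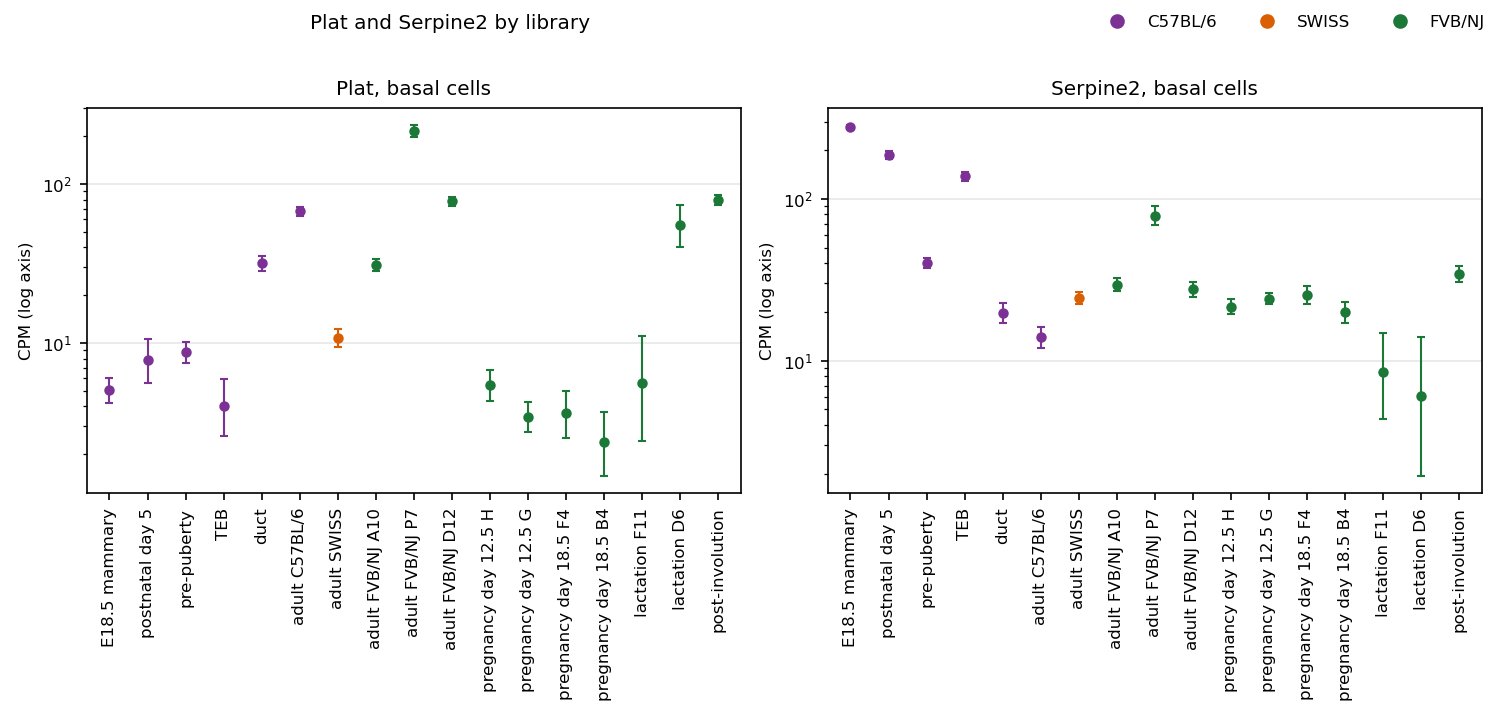
Plat (left) and Serpine2 (right) in basal cells of each library, in CPM on log axes; points are the class sums, bars are exact Poisson 95% intervals and colours give the strain. Plat was highest in P7 (216 CPM) and lowest in pregnancy day 18.5 B4 (2.40 CPM), and Serpine2 was highest at E18.5 (278 CPM) and lowest in lactation D6 (6.02 CPM).

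Among neighbours in that order, the intervals of Plat overlapped between TEBs (2.62 to 5.98 CPM), E18.5 (4.22 to 6.04 CPM) and postnatal day 5 (5.64 to 10.7 CPM), and between postnatal day 5 and pre-puberty (7.52 to 10.2 CPM). Those of Serpine2 at E18.5 (272 to 285 CPM), postnatal day 5 (175 to 198 CPM), TEBs (129 to 147 CPM) and pre-puberty (37.4 to 43.1 CPM) did not overlap. Shares of cells thinned to one depth followed the order of the CPM values in these 6 libraries, and unthinned shares did not. With each cell reduced to 2000 UMIs, and shallower cells left out, Serpine2 was expected in 39.4% of E18.5 basal cells and 2.80% of adult C57BL/6 basal cells, and Plat in 1.08% and 12.2%, over 2727 of 2844 and 2709 of 2946 cells. At postnatal day 5 the thinned shares were 30% for Serpine2 and 1.35% for Plat (502 of 512 cells), and before puberty 7.50% and 1.66% (2358 of 2366 cells). Before thinning, at median depths of 7967 and 3606 UMIs, the shares were 75.9% and 4.89% for Serpine2 and 3.94% and 21.3% for Plat; at postnatal day 5 and before puberty, at 8664 and 6974 UMIs, they were 64.5% and 24.3% for Serpine2 and 5.66% and 6% for Plat. In adult C57BL/6 LP/alveolar cells, at a median of 3302 UMIs, the thinned shares were 0.382% for Plat and 0.280% for Serpine2, a low background for that library. In the early libraries LP/alveolar cells gave no such background for Serpine2, with thinned shares of 46.5% at E18.5 and 30.8% at postnatal day 5 (82.8% and 73.8% unthinned). At E18.5 this was the poorly resolved class of 58 cells.

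The early values depended on which cells were called basal. The postnatal day 5 library contained keratin-high cells with neither contractile nor luminal markers; with these counted as basal, Serpine2 there was 59.5 CPM in place of 186 CPM, and with classes taken from clusters it was 295 CPM. The summed epidermal markers in basal cells were 512 CPM at E18.5 and 504 CPM at postnatal day 5, and 24.2 to 61.4 CPM in the other libraries; their part in the values was not tested. At E18.5 those alternatives gave Serpine2 at 267 and 292 CPM. The wider margin gave 230 CPM at E18.5 and 175 CPM at postnatal day 5. With classes from clusters Plat at postnatal day 5 was 4.29 CPM in place of 7.89 CPM, below the TEB value of 6.98 CPM by that method. With keratin-high cells counted, Plau there was 9.88 CPM in place of 23.9 CPM and Plaur 9.88 CPM in place of 21.1 CPM.

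The pubertal pair separated the advancing end buds from the ducts left behind them, in tissue dissected and processed together. In basal cells Serpine2 was 6.94-fold higher in TEBs than in ducts (138 against 19.8 CPM, 95% counting interval of the ratio 5.97 to 8.08), and Plat was 7.88-fold higher in ducts than in TEBs (31.9 against 4.05 CPM, 5.25 to 11.8). The thinned share of basal cells with Serpine2 was 23.5% in TEBs and 3.53% in ducts, and that with Plat was 0.851% and 7.61%, over 258 and 732 cells. Before thinning, at medians of 22503 and 11803 UMIs, the shares were 89.9% and 17.8% for Serpine2 and 5.81% and 32.2% for Plat. No background share from another class is given for this pair. Basal Plat in TEBs was only 1.36 times the ML level and 1.92 times the LP/alveolar level. Under other gates the TEB value of Plat was 4.05 to 6.98 CPM, still below that of ducts (31.6 to 33.4 CPM). There was 1 library of each, with 258 basal cells in TEBs and 735 in ducts, so no test between the structures was possible. Other markers in the basal class also differed between them. Summed fibroblast markers were 65 CPM in TEBs and 235 CPM in ducts, LP/alveolar markers 487 and 167 CPM, and basal markers 6616 and 15193 CPM. Their part in the Plat and Serpine2 values was not tested.

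Luminal cells of the pair were compared in the same way, with no test between classes. Serpine2 in LP/alveolar cells was 23.1 CPM in TEBs and 4.04 CPM in ducts, a 5.71-fold difference (3.94 to 8.28) whose interval held the basal ratio, and in ML cells it was 9.25 and 7.04 CPM, with an interval of the ratio that included 1 (0.971 to 1.78). Plaur, the urokinase receptor, was found mainly in ML cells at this age, at 15.2 CPM in TEBs and 7.85 CPM in ducts (ratio 1.94, 1.47 to 2.56), and at 0.810 to 1.31 CPM in basal and LP/alveolar cells of both. Plau in basal cells was 3.24 CPM in TEBs and 3.59 CPM in ducts, a ratio of ducts to TEBs of 1.11 (0.644 to 1.90). Plau counts in luminal cells of both structures were at or below 2.

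**Figure D2:**
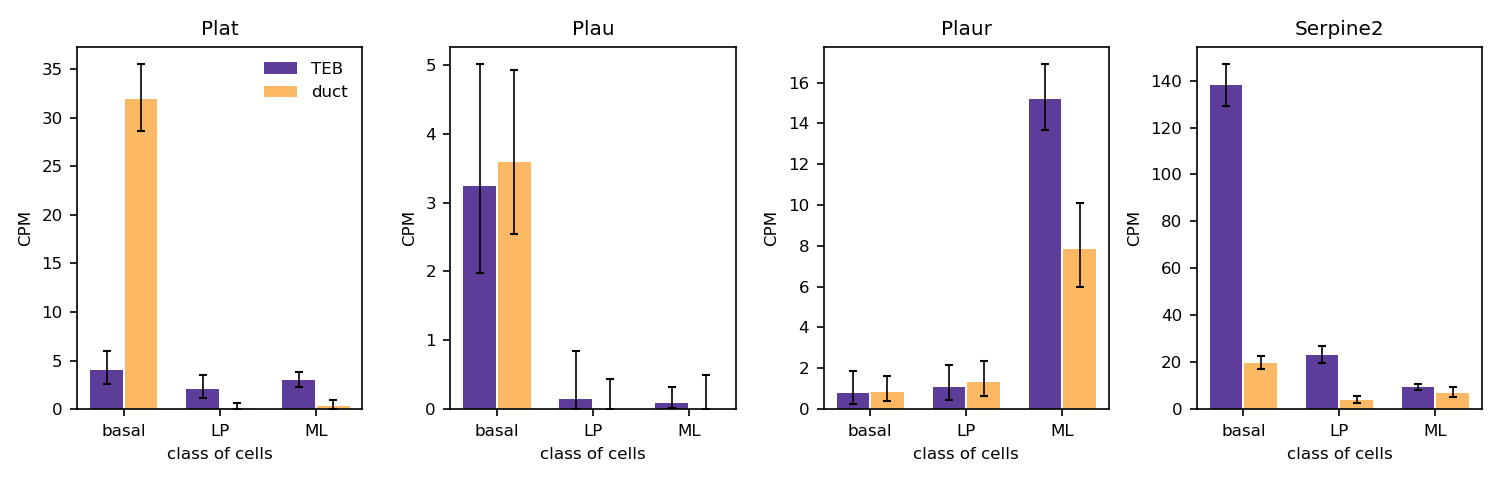
The 4 genes in basal, LP/alveolar (LP) and ML cells of TEBs and ducts at 5 weeks, in CPM on linear axes from 0; bars are single libraries with exact Poisson 95% intervals. Plat was high in duct basal cells (31.9 CPM), Serpine2 in TEB basal cells (138 CPM) and Plaur in TEB ML cells (15.2 CPM), while Plau did not separate the structures.

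Virgin adults of 3 strains showed a wide range of Plat in basal cells. It was 67.4 CPM in C57BL/6, 10.8 CPM in SWISS, and 31.0 CPM (A10), 216 CPM (P7) and 78.2 CPM (D12) in FVB/NJ, a mean of 108 ± 96.1 CPM in FVB/NJ (SD, n = 3). C57BL/6 and SWISS adults, which were processed together, differed 6.24-fold (5.41 to 7.19, counting error alone), but the 3 FVB/NJ libraries ranged as widely among themselves. The C57BL/6 value lay inside the FVB/NJ range and the SWISS value lay below it. Serpine2 was 14.0 CPM in C57BL/6, 24.4 CPM in SWISS, and 29.5 CPM (A10), 78.8 CPM (P7) and 27.7 CPM (D12) in FVB/NJ. P7 was the highest adult library for Plat, Plaur and Serpine2 in basal cells but not for Plau.

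In adults Plat was higher in basal cells than in either luminal class. LP/alveolar cells had 4 CPM or less of Plat in all 17 libraries, and ML cells had 6.09 CPM or less in the 16 libraries with at least 20 such cells. In adults the basal level exceeded that of LP/alveolar cells of the same library 9-fold (SWISS) to 73.5-fold (P7). At pregnancy day 12.5 it still did so 8.49-fold (H) and 8.71-fold (G), at low levels in both classes. Against ML cells the ratio was 10.4 (SWISS) to 160 (P7) in adults. It was 1.36 in TEBs, where that against LP/alveolar cells was 1.92. In G and F11 the basal level did not exceed that of ML cells, with ratios of 0.818 and 0.928 and 4 counts behind each ML value.

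Plat in basal cells was low in both stages of pregnancy. It was 5.46 CPM (H) and 3.45 CPM (G) at day 12.5, 3.63 CPM (F4) and 2.40 CPM (B4) at day 18.5, 5.65 CPM (F11) and 55.3 CPM (D6) in lactation, and 79.3 CPM in the post-involution library. All 3 adult FVB/NJ libraries were above all 4 pregnancy libraries, and the post-involution library was within the adult range. Summed LP/alveolar markers in the basal class were 332 to 1006 CPM in FVB/NJ adults, 1466 and 1928 CPM at day 12.5 and 2575 and 4074 CPM at day 18.5. Its fibroblast markers were 167 to 306 CPM, 282 and 293 CPM, and 794 and 955 CPM in that order, and the part of either in the Plat values was not tested. The lactation libraries differed 9.80-fold from each other (4.63 to 20.8), on 8 counts in F11 and 46 in D6. The fitted log2 difference of Plat was -4.39 (SE 0.843) for day 12.5 against adult, -0.66 (SE 0.817) for day 18.5 against day 12.5 and 3.42 (SE 0.895) for lactation against day 18.5. When each library was left out in turn the first lay between -4.80 (without A10) and -3.56 (without P7), whereas the last was 1.65 without D6. The day 12.5 and adult ranges did not overlap for any of the 4 genes, but the share of all genes with such ranges was not counted. By a stricter measure, 1.83% of all 13224 genes tested in basal cells passed edgeR's adjusted p of 0.05. At an unadjusted edgeR p below 0.05 the number was 1982, and neither figure stands in for the share with separate ranges. Since the 4 genes were chosen on these libraries, nothing is read from their ranges.

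Serpine2 in basal cells was lower in all 4 pregnancy libraries than in the 3 FVB/NJ adults and lower again in lactation. Against 27.7 to 78.8 CPM in adults, it was 21.6 CPM (H) and 24.2 CPM (G) at day 12.5, 25.6 CPM (F4) and 19.9 CPM (B4) at day 18.5, 8.47 CPM (F11, 12 counts) and 6.02 CPM (D6, 5 counts) in lactation, and 34.4 CPM post-involution. Both lactation libraries were below every other library, although the interval of each, 4.38 to 14.8 CPM and 1.95 to 14.0 CPM, reached that of adult C57BL/6 (12 to 16.2 CPM). The fitted log2 difference was -0.79 (SE 0.443) for day 12.5 against adult, -0.13 (SE 0.475) for day 18.5 against day 12.5 and -1.15 (SE 0.578) for lactation against day 18.5. Without P7 the first was -0.29.

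**Figure D3:**
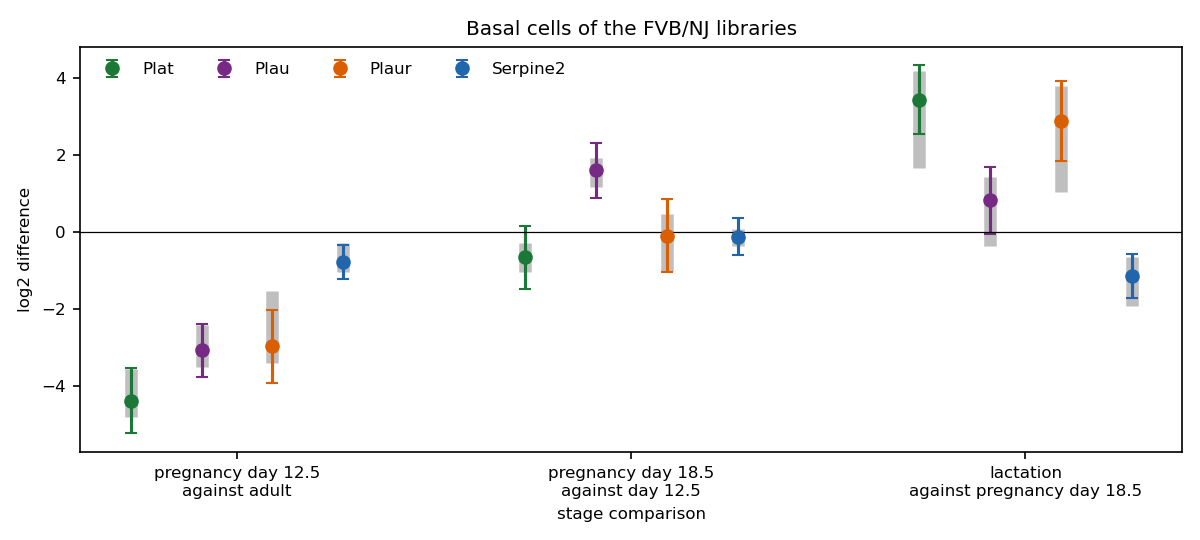
Fitted log2 differences of the 4 genes in basal cells between successive FVB/NJ stages; points are estimates, bars 1 standard error and grey bands the range when each of the 9 libraries was left out in turn. Plat differed most between day 12.5 and adult (-4.39), and the lactation difference of Plau changed sign without D6 (0.81 to -0.37).

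The basal class in lactation held RNA of other cell types. Its summed LP/alveolar markers were 38645 CPM (F11), above its basal markers at 20993 CPM, and 4844 CPM (D6), against 167 to 4074 CPM in the 15 other libraries. Its adipocyte markers were 21.2 and 32.5 CPM against at most 6.54 CPM. Its summed immune markers were 35.3 CPM (F11) and 233 CPM (D6) against 0.162 to 5.77 CPM in the 15 other libraries, its endothelial markers 35.3 and 265 CPM against 3.12 to 12.3 CPM, and its mural markers 46.6 and 318 CPM against 3.66 to 29.3 CPM. In D6 all 7 immune, 5 endothelial and 5 mural markers were detected in basal cells. Fibroblast markers were 237 CPM (F11) and 243 CPM (D6) against 49.7 to 955 CPM. Beside 55.3 CPM in basal cells, Plat in D6 was 4.90 CPM in immune, 13.2 CPM in endothelial and 43.2 CPM in mural cells and 384 CPM in fibroblasts. The part of such RNA in the lactation values was not tested.

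Fibroblasts were the class with the highest Plat in 10 of the 17 libraries. In all, 11 libraries had at least 20 fibroblasts, and Plat in them was 43.2 CPM at E18.5, 28.0 CPM at postnatal day 5, 310 CPM in adult C57BL/6, 233 CPM in SWISS, 213 CPM (A10), 613 CPM (P7) and 248 CPM (D12) in adult FVB/NJ, 416 CPM in F4, 90.6 CPM (F11) and 384 CPM (D6) in lactation, and 328 CPM post-involution. Both perinatal libraries were below all 9 later ones, and the intervals of postnatal day 5 (19.7 to 38.6 CPM) and E18.5 (36 to 51.4 CPM) overlapped. Plat was higher in fibroblasts than in basal cells in all 11 libraries. The lowest count behind these values was 16, in F11, and P7, D12 and F4 had 28, 32 and 29 fibroblasts. No 2 successive stages both had at least 2 libraries with 20 fibroblasts, so no stage test was made in them. Schwann-like cells also carried Plat, at 42.2 to 230 CPM in the 5 libraries with at least 20 of them. Their Serpine2 was 46.4 to 247 CPM. Endothelial cells had 6.03 to 145 CPM of Plat, also in 5 libraries.

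Serpine2 in fibroblasts was highest at postnatal day 5. It was 138 CPM at E18.5 and 1019 CPM at postnatal day 5, a 7.38-fold difference (6.60 to 8.25), and 26.9 CPM in adult C57BL/6, 55.6 CPM in SWISS, 33.0 CPM (A10), 157 CPM (P7) and 44.1 CPM (D12) in FVB/NJ, 233 CPM in F4, 22.6 CPM (F11) and 64.6 CPM (D6) in lactation and 73.7 CPM post-involution. The postnatal day 5 fibroblasts numbered 255, and 54.5% of them had a Serpine2 UMI at a median of 4050 UMIs, or 48.5% when thinned to 2000. In epidermal cells of the same library the shares were 7.22% at a median of 15706 UMIs and 1.10% when thinned. Of the 11 libraries, postnatal day 5 thus had the lowest Plat and the highest Serpine2 in fibroblasts. Its fibroblast class also had the lowest fibroblast markers, with a median of their mean log2 level of 1.89. In the others that median was 3.24 (post-involution) to 4.05 (F4). The postnatal day 5 library also held 1658 keratin-high and 194 epidermal cells. The part of these in its values was not tested. E18.5 and postnatal day 5 were single libraries, so stage cannot be told apart from library.

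In the adult gland and later, Serpine2 was highest in mural cells, the contractile cells of blood vessel walls. It was 394 CPM in C57BL/6, 247 CPM (A10) and 885 CPM (P7) in FVB/NJ adults, 266 CPM (F4) and 230 CPM (B4) at day 18.5, 116 CPM (F11) and 123 CPM (D6) in lactation and 359 CPM post-involution. Mural cells were the class with the highest Serpine2 in all 8 libraries with at least 20 of them, on 12 to 148 counts per library. These cells were called by their markers. Clustering put 99.5% of them post-involution, 90% in F11 and 36.7% in D6 in a mural cluster, and 0% in the other 5 libraries, as for the fibroblasts of F4. Basal cells in those libraries were at 6.02 to 78.8 CPM.

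**Figure D4:**
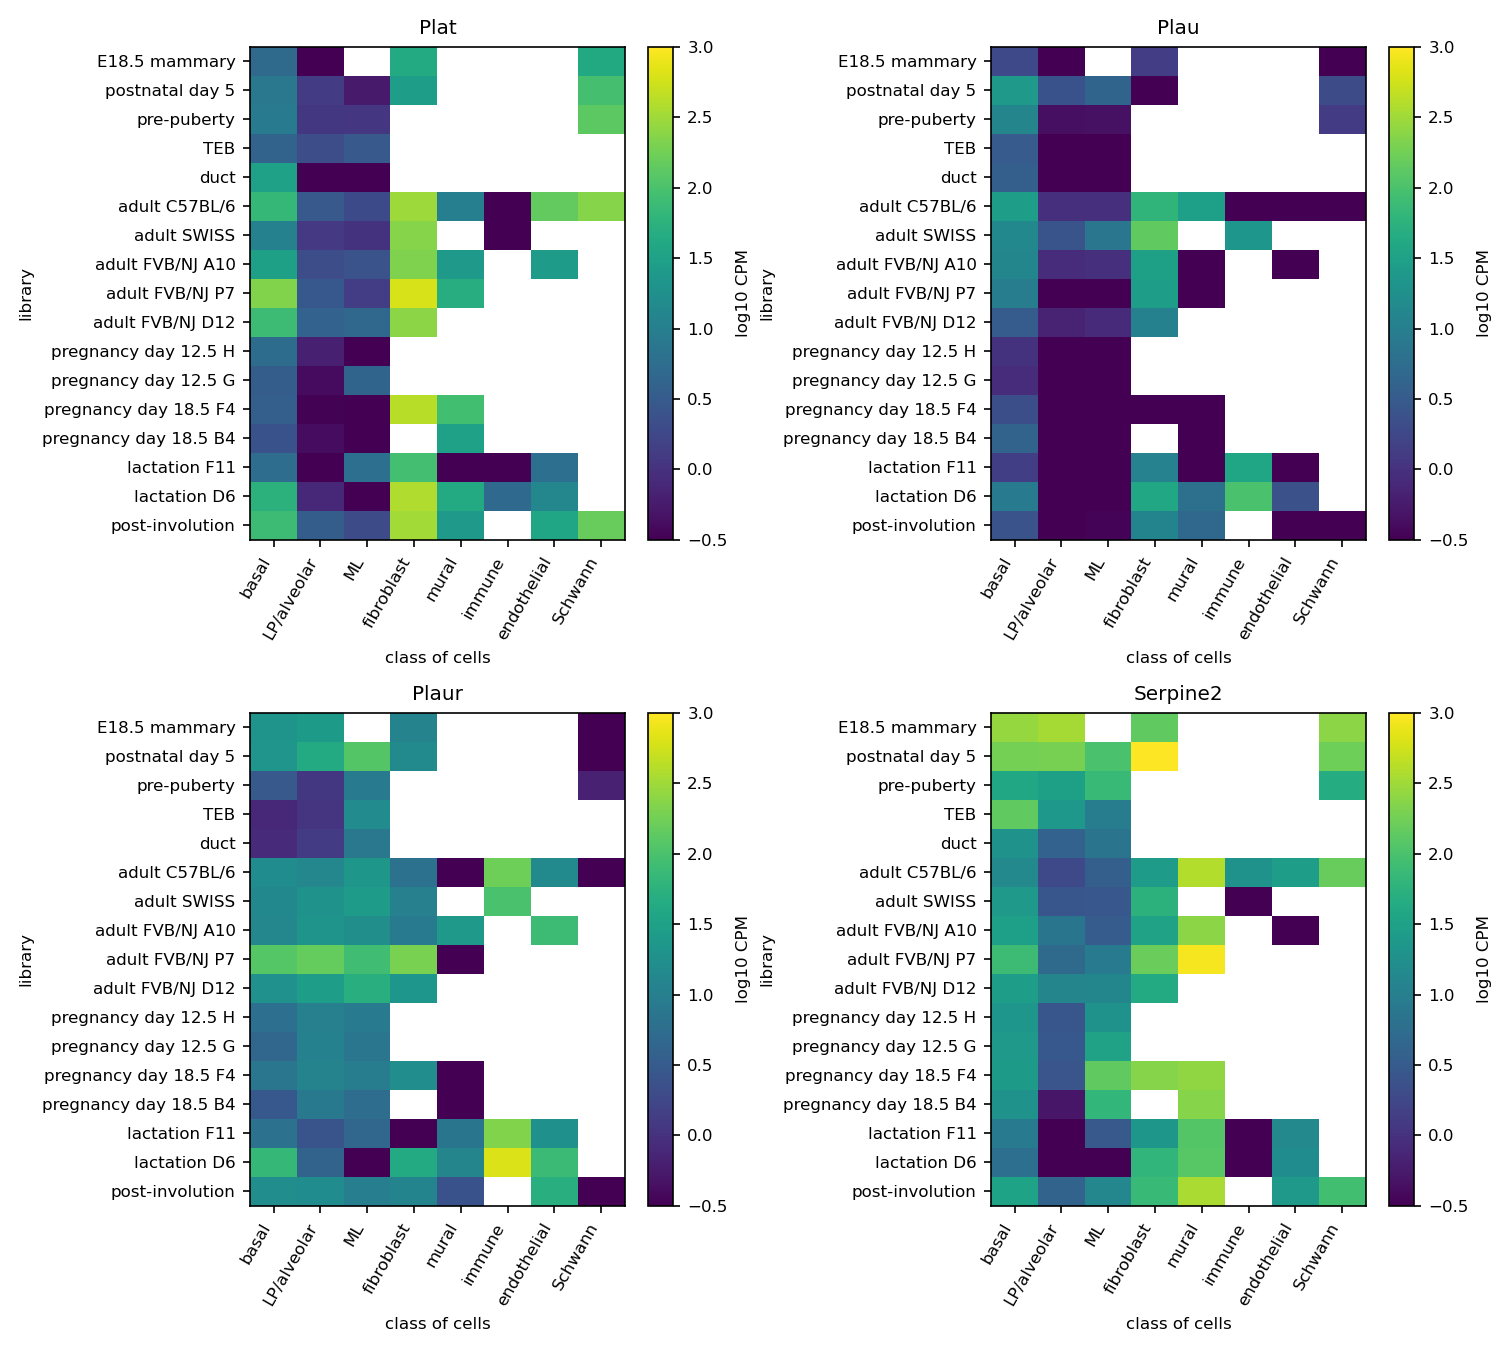
CPM of each gene by library (rows) and class (columns), as log10 colour with values under 0.3 CPM drawn at the bottom of the scale and blank cells where a class had fewer than 20 cells. Plat stood out in fibroblasts, Schwann cells and adult basal cells other than those of SWISS. Serpine2 did so in mural and Schwann cells and in the classes of E18.5 and postnatal day 5. Plau did so in basal, fibroblast and immune cells, and Plaur in immune cells and in epithelial cells and fibroblasts of P7.

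ML cells, the hormone-sensing luminal cells, had more Serpine2 at each step from adult to late pregnancy, an order not seen in basal or LP/alveolar cells. In ML cells it was 3.28 CPM (A10), 8.78 CPM (P7) and 12.9 CPM (D12) in adults, 19.7 CPM (H) and 32.7 CPM (G) at day 12.5, 138 CPM (F4) and 65.3 CPM (B4) at day 18.5, 3.05 CPM (F11, 2 counts) and no count (D6) in lactation, and 13.2 CPM post-involution. The values of these first 3 stages did not overlap, although the counting intervals of D12 (10.9 to 15.1 CPM) and H (10.5 to 33.7 CPM) did. In D6, 3 counts would have been 10.2 CPM. With cells reduced to 2000 UMIs, 21.4% (F4) and 10.8% (B4) of ML cells at day 18.5 were expected to have a Serpine2 UMI, against 2.24% in D12, with 293, 162 and 1315 cells kept. The unthinned shares were 31.6%, 32.3% and 8.45%. These classes were small, with 304 and 167 cells at day 18.5 and 152 and 220 at day 12.5. Summed basal markers in ML cells were 1452 CPM (F4), 272 CPM (B4), 752 CPM (H), 1484 CPM (G) and 89.1 to 1082 CPM in adults, and basal cells of the same libraries had 25.6 and 19.9 CPM of Serpine2, below the ML values. Summed mural markers in ML cells moved with Serpine2, at 23.3 to 35.1 CPM in adults, 61.2 and 68.1 CPM at day 12.5, 77.4 and 80.4 CPM at day 18.5 and 36.6 and 47.6 CPM in lactation, with Higd1b at 0 in all 9 libraries. LP/alveolar markers in ML cells were 145 to 466 CPM in adults, 1339 to 3681 CPM in pregnancy and 25431 and 3843 CPM in lactation. The part of mural or LP/alveolar RNA in the ML values was not tested. LP/alveolar cells went from 5.05 to 12.4 CPM in adults to 2.88 CPM or less at day 12.5 and 2.61 CPM or less at day 18.5, on a scale in which milk transcripts took a growing share of their UMIs. The ML cells before puberty and at postnatal day 5 also had much Serpine2, at 72.1 and 99.5 CPM.

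Plau was at 28.1 CPM or less in basal cells and higher in fibroblasts or immune cells of some libraries. In basal cells it was 1.88 CPM at E18.5, 23.9 CPM at postnatal day 5, 12.3 CPM before puberty and 28.1 CPM in the adult of C57BL/6, 13.4 CPM in SWISS, 12.6 CPM (A10), 9.67 CPM (P7) and 3.29 CPM (D12) in FVB/NJ adults and 2.52 CPM post-involution. At day 12.5 it was 1.02 CPM (H) and 0.872 CPM (G), at day 18.5 it was 2.22 CPM (F4) and 4.08 CPM (B4), and in lactation 1.41 CPM (F11, 2 counts) and 8.42 CPM (D6, 7 counts). Both day 12.5 libraries were below all 3 adults, and the fitted log2 difference was -3.08 (SE 0.680). Fibroblasts carried more, at 142 CPM in SWISS, 62.5 CPM in C57BL/6 and 11 to 30.5 CPM in FVB/NJ adults, where D12 and P7 each had 2 counts. No Plau count was seen in the 255 postnatal day 5 fibroblasts, where 3 counts would have been 2.27 CPM. Immune cells reached 99 CPM in D6 and 35.9 CPM (3 counts) in F11.

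Plaur was highest in immune cells in the 4 libraries with at least 20 of them, at 171 CPM in adult C57BL/6, 99.2 CPM in SWISS, 215 CPM in F11 and 655 CPM in D6. In the other 13 libraries the highest class was ML in 5, LP/alveolar in 4, endothelial in 2 and fibroblast in 2. Some of these rested on little. The fibroblast value of F4 (16.6 CPM) came from 3 counts or fewer, and the LP/alveolar value of E18.5 from its poorly resolved class of 58 cells. The endothelial classes held 27 cells (A10) and 39 cells (post-involution). In basal cells it was 20.6 CPM at E18.5, 21.1 CPM at postnatal day 5, 2.98 CPM before puberty, 16.0 CPM in adult C57BL/6, 13.7 CPM in SWISS, 13.0 CPM (A10), 119 CPM (P7) and 18.5 CPM (D12) in FVB/NJ adults and 16.3 CPM post-involution. It was 5.94 CPM (H) and 4.55 CPM (G) at day 12.5, 7.55 CPM (F4) and 2.88 CPM (B4) at day 18.5, and 6.35 CPM (F11) and 67.4 CPM (D6) in lactation, where D6 also had the immune markers given above. With cells of at least 1000 genes the lactation values were 32.9 CPM (F11) and 93.9 CPM (D6), and with classes from clusters 3.15 and 101 CPM. The value in P7 was not particular to basal cells: LP/alveolar cells of P7 had 149 CPM, ML cells 84.1 CPM and fibroblasts 199 CPM, against 20.7 to 28.9 CPM, 16.7 to 48.7 CPM and 8.89 to 22.1 CPM in A10 and D12. The fitted log2 difference in basal cells for day 12.5 against adult was -2.98 (SE 0.951), and -1.54 without P7. At postnatal day 5 the receptor was highest in ML cells, at 117 CPM, 13.8-fold above pre-puberty ML cells at 8.44 CPM (9.86 to 19.3).

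**Figure D5:**
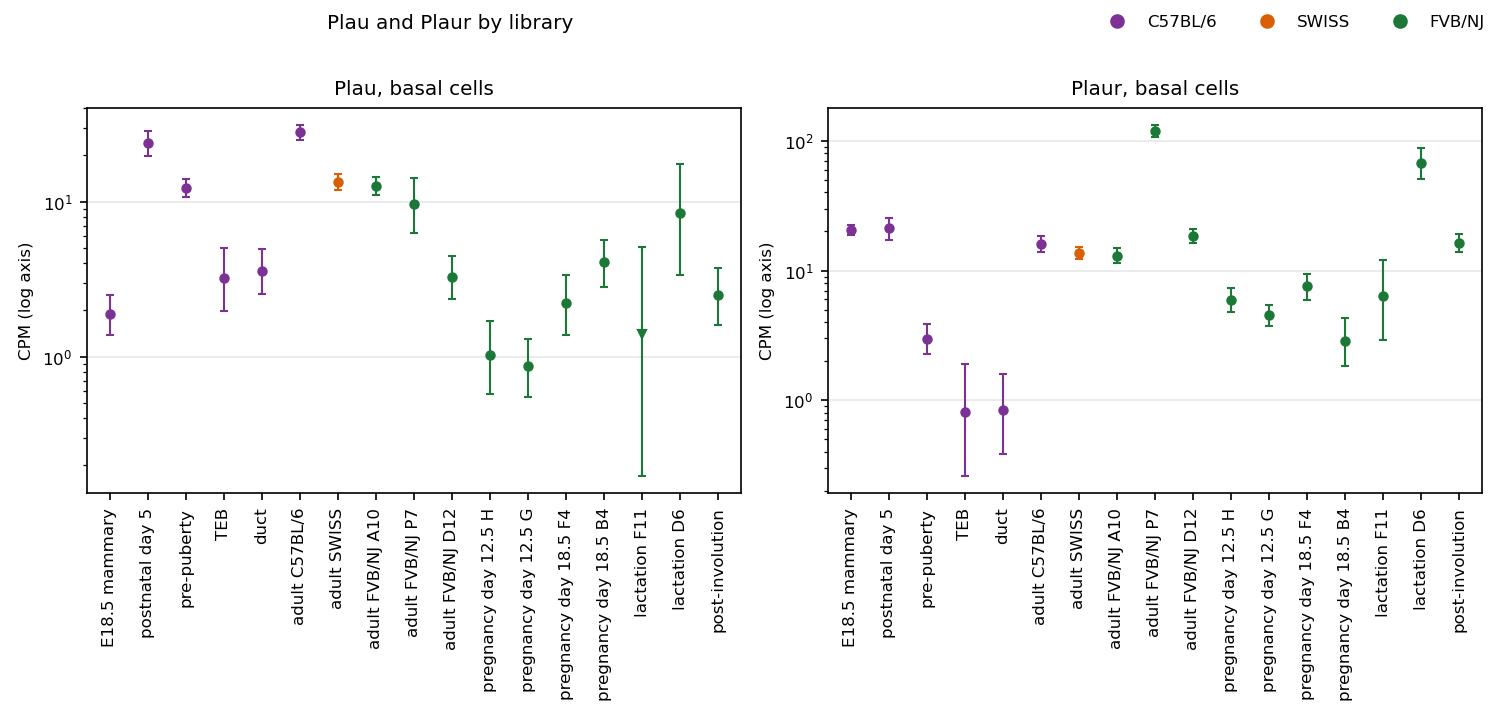
Plau (left) and Plaur (right) in basal cells of each library, in CPM on log axes, with exact Poisson 95% intervals, strain colours and triangles where the count was 3 or less. Plau was highest in adult C57BL/6 (28.1 CPM) and lowest at day 12.5 in G (0.872 CPM), and Plaur was highest in P7 (119 CPM) and lowest in TEBs (0.810 CPM).

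The genes that varied most like each member across basal cells of the 17 libraries were ranked by Pearson correlation of log2(CPM + 5) among 13607 genes, as a description. Several libraries share a strain or were handled together, and they differ in depth. For Plat they were Hspa2 (r = 0.91), a heat shock protein gene, Tmem62 (0.87) and Tuba4a (0.86), each highest in P7. For Plau they were Edrf1 (0.91), Vcpip1 (0.86) and Htatsf1 (0.85), and for Plaur 3110001I22Rik (0.91), Uap1 (0.88) and Sbds (0.86), the last 3 each highest in P7. For Serpine2 they were Klhl32 (0.94), Tead2 (0.89), a partner of the Hippo pathway coactivators, which was highest at E18.5 at 61.0 CPM and lowest in F11 at 3.53 CPM, and Ppfia3 (0.87). Some of these genes were low in all 17 libraries. Klhl32 was at 0 to 3.94 CPM, Ppfia3 at 0 to 7.36 CPM, Tmem62 at 0 to 6.32 CPM and 3110001I22Rik at 0.973 to 7.06 CPM. Between members, r was 0.68 for Plat and Plaur and -0.16 for Plat and Serpine2.

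The surrounding plasmin pathway was read in 55 further genes in 4 lists: 18 of the plasmin axis, 17 matrix proteases and their inhibitors, 11 other serpins and 9 genes of hepatocyte growth factor activation. Successive FVB/NJ stages were compared with edgeR's quasi-likelihood test across all genes that passed a filter on low counts, 41 of the 55 list genes in basal cells and 37 in LP/alveolar cells. Plg, the plasminogen gene, had no count in 204858531 UMIs of basal cells from 17 libraries, which allows up to 0.0146 CPM; the protein is made mainly by the liver. Plg was picked for its role after its value had been seen.

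In basal cells between adult and day 12.5, 1 of the 41 list genes was called at an adjusted p under 0.05, against 1.83% of all 13224 genes tested. It was Spint1, an inhibitor of the hepatocyte growth factor activator and matriptase, which fell by 2.58 on the log2 scale (SE 0.575, edgeR adjusted p = 0.0486), from 4.59, 15.7 and 8.55 CPM in A10, D12 and P7 to 1.23 and 1.67 CPM in H and G. The call was lost in 9 of 16 alternatives, among them with classes from clusters and without D12, H or G. Calls over all genes fell in each of those named settings too, and without H or G day 12.5 had a single library. Summed ML markers in the basal class were 192, 473 and 153 CPM in A10, D12 and P7 and 31.8 and 35.9 CPM in H and G. Its LP/alveolar markers went the other way, from 332, 720 and 1006 CPM to 1928 and 1466 CPM. The part of either in the Spint1 values was not tested. The median log2 difference over list genes was -0.69, against -0.08 over all genes, with 9 of 41 above 0. By list the medians were -1.06 (plasmin axis), -0.95 (matrix proteases), -0.45 (other serpins) and -0.61 (growth factor activation). DESeq2 called 5 list genes, against 619 of all 20404 genes.

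From day 12.5 to day 18.5, edgeR called none of the 41 list genes in basal cells, while 0.0454% of all genes were called. DESeq2 also called 0, against 149 of all 20404 genes. At an unadjusted edgeR p below 0.05 the number was 5, against 1139 of all 13224 genes. From day 18.5 to lactation 5 of 41 were called against 1.16% of all genes. Timp4, a metalloproteinase inhibitor, was at 0.120 CPM (B4) and 0.101 CPM (F4) and then 23.3 CPM (F11) and 75.8 CPM (D6), a ratio of 390 (105 to 3266) of pooled counts, of which only 2 came from day 18.5 (edgeR adjusted p = 0.00236). Adamts5 and Adamts1, proteases of matrix proteoglycans, rose by 4.18 (SE 0.484, adjusted p = 0.00261) and 3.38 (SE 0.652, adjusted p = 0.0311) on the log2 scale. Thbd, the thrombin receptor thrombomodulin, rose by 5.52 (SE 1.04, adjusted p = 0.0271), and Serpinf1, which encodes the serpin PEDF, fell by 4.37 (SE 0.679, adjusted p = 0.0113), from 98.1 and 102 CPM to 2.82 and 4.81 CPM. The immune, endothelial, mural, adipocyte and LP/alveolar markers of the basal cells were also higher in lactation than at day 18.5, as were these genes except Serpinf1. Their fibroblast markers were lower, as was Serpinf1. The part of any of these in the values was not tested. Without F4 or without B4 every call above was lost. Those of Timp4, Adamts1, Thbd and Serpinf1 were lost without D6, and those of Thbd and Serpinf1 without F11. Each of these fits left a single library in a stage. Calls over all genes fell in each of them too, so the losses were not particular to these genes. Of all 16 alternatives, Adamts1 lost its call in 7, Thbd in 6, Serpinf1 in 5, Timp4 in 3 and Adamts5 in 2.

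In LP/alveolar cells between adult and day 12.5, 11 of 37 list genes were called, 3 up and 8 down, against 11.8% of all 13913 genes. The falls included Serping1 (-3.89, SE 0.685), an inhibitor of complement and contact proteases, F3 (-3.68, SE 0.735), the tissue factor that starts coagulation, Anxa2 (-3.55, SE 0.531), a cell-surface receptor for plasminogen and Plat, Serpinb5 (-3.13, SE 0.454), the serpin maspin, and the membrane protease Mmp14 (-2.24, SE 0.329). Smaller falls were those of Serpinb6a (-2.08), Hpn (-1.58) and Timp1 (-1.23). Those that rose were Adamts5 (4.86, SE 0.716), F2r (1.91, SE 0.486), the thrombin receptor, and Plgrkt (1.20, SE 0.241), a membrane receptor for plasminogen. Anxa2 went from 342, 701 and 1250 CPM in A10, D12 and P7 to 54.2 and 47.5 CPM in H and G. Of these calls, only that of Adamts5 held in all 16 alternatives. The others were lost without H and without G. Those fits left a single library at day 12.5, and calls over all genes fell in them too.

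From day 12.5 to day 18.5 edgeR called none of the 37 list genes in LP/alveolar cells, against 0.970% of all genes. DESeq2 called 2, against 744 of all 20806 genes. At an unadjusted edgeR p below 0.05 the number was 7, against 2240 of all 13913 genes. Between day 18.5 and lactation 6 of 37 were called against 3.49% of all genes. Scaling mattered here: without TMM scaling the median log2 difference over all genes went from -0.03 to -1.79, and 221 genes rose and 10366 fell in place of 342 and 143. Timp4 (5.88, SE 0.590) and Timp1 (4.26, SE 0.391) rose and held in all 16 alternatives, Procr (3.68, SE 0.565), the endothelial protein C receptor, and Thbd (3.33, SE 0.756) rose, and Serpinh1 (-1.83, SE 0.399), a collagen chaperone, and Mmp15 (-1.76, SE 0.379) fell, each relative to that scaling. Thbd, Serpinh1 and Mmp15 lost their calls in 9, 10 and 9 alternatives, and Procr in 3. Timp1 in these cells was 3.55 CPM (F4) and 2.69 CPM (B4) at day 18.5, and 13.0 CPM (F11) and 21.7 CPM (D6) in lactation. Timp4 was near the floor, at 0.165 CPM (F4, 7 counts) and 0.0682 CPM (B4, 2 counts), then 2.56 CPM (F11) and 1.80 CPM (D6). Procr went from 0.612 CPM (F4) and 0.477 CPM (B4) to 1.78 CPM (F11) and 2.32 CPM (D6). The part of RNA of other cell types in these values was not tested.

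By level, the most abundant list genes in basal cells of the 9 FVB/NJ libraries were S100a10 (mean 720 CPM), Anxa2 (304 CPM) and Eno1 (268 CPM), all cell-surface plasminogen binders, in the plasmin axis. Among matrix genes they were Adamts1 (242 CPM), Timp3 (238 CPM) and Timp2 (183 CPM), an order that rested on D6, where Adamts1 was 1090 CPM. Without D6 the means were 136, 213 and 188 CPM, and Adamts1 was above Timp3 in 3 of the 9 libraries. Among other serpins they were Serpinh1 (663 CPM), Serpinb6a (97.3 CPM) and Serpinb5 (96.5 CPM). Without P7, where Serpinb5 was 266 CPM, Serpinb6a had a mean of 86.1 CPM and Serpinb5 of 75.3 CPM, and Serpinf1 came above both. In the last list they were Spint2 (415 CPM), St14 (17.7 CPM) and Hpn (10.5 CPM).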

How the data were processed

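The authors deposited, per library, whole-number counts of UMIs per gene and cell barcode, made with Cell Ranger (3.1.0 in the submitters' processing notes, 3.0.2 in the headers of 16 files) on mm10. Of those barcodes, cells with more than 500 genes and below the study's upper limits on genes, UMIs and mitochondrial share were kept. No doublet caller was run, so doublets were limited only by those upper limits. The E18.5 skin library was left out of all comparisons.

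Each cell was assigned to the marker panel with the highest mean log2 level above background, where it led the next by 0.5 or more. Counts were summed per library and class with at least 20 cells. CPM is counts scaled to 1000000 UMIs of the class, with exact Poisson 95% intervals, which cover counting error only, as do the limits set at 3 counts. Sums of the 9 FVB/NJ libraries were fitted together in edgeR 4.0.16 (R 4.3.3), with TMM scaling, the filterByExpr low-count filter and the quasi-likelihood test, adjusted by the Benjamini-Hochberg method over all genes tested. The libraries pooled several animals, so p-values measure the spread between libraries. The log2 differences are those edgeR gives with a small prior count. Each SE was worked back from the difference without that prior count and the F value of the test. All 4 genes passed the filter in both classes. The script was tested on simulated data. No fibroblast stage test was run.

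The genes and lists were chosen with earlier results of these data known. Named from the lists were the genes called in a comparison and the 3 most abundant of each list in basal cells, and for each of the 4 genes the 3 most alike across libraries. Alternatives were DESeq2 1.42.0, no TMM scaling, no low-count filter, a wider margin of 1.0, classes from clusters, cells with at least 1000 genes and leaving out each library. A replicate block and the alternatives for the level of the 4 genes in every library were chosen after seeing the data. Sequences came from GENCODE M21 transcripts. Age of the pre-puberty gland follows the labels.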

Additional observations from a re-analysis of the deposited data

Results flagged for a closer look

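Serpine2 values in CPM lay in opposite directions in different classes of the same FVB/NJ libraries. Between adult and pregnancy day 12.5 every ML value was higher, the mean being 3.15 times that of adults (26.2 ± 9.19 CPM, SD, n = 2, against 8.32 ± 4.83 CPM, SD, n = 3), while every basal value was lower. The same 3.15-fold difference in ML cells stood against lower values in every LP/alveolar library. Between day 12.5 and day 18.5 the ML mean was 3.88 times higher, at 102 ± 51.4 CPM (SD, n = 2), while both LP/alveolar values were lower, at 2.61 and 0.511 CPM against 2.72 and 2.88 CPM. The fitted log2 difference in LP/alveolar cells, scaled by TMM, was -0.34 (SE 0.644), within its error of 0, and for day 12.5 against adult it was -1.29 (SE 0.61). These differences between classes were not tested.

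The E18.5 skin library, which entered no comparison, held Plat at 35.9 CPM, Plau at 0.218 CPM, Plaur at 12.5 CPM and Serpine2 at 138 CPM over all its cells.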

How the results depend on the processing

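The log2 differences of the 4 genes in basal cells moved by less than the spread between libraries in 187 of 192 cases. The exceptions were in lactation against day 18.5: Serpine2 was -2.10 with cells of at least 1000 genes, and over the libraries left out Plat lay between 1.65 and 4.17, Plau between -0.37 and 1.43, Plaur between 1.02 and 3.78 and Serpine2 between -1.93 and -0.67. The levels in single libraries moved less than that spread in 188 of 216 cases. No called list gene changed direction; 269 results kept their call and 99 lost it.

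The number of genes called depended on the settings. In basal cells, for day 12.5 against adult, day 18.5 against day 12.5 and lactation against day 18.5 in that order, DESeq2 called 619, 149 and 398 genes, no low-count filter gave 1058, 312 and 666, and classes from clusters gave 113, 3 and 70, against 242, 6 and 153. Without TMM scaling and with the wider margin 0 were called for day 18.5, and the wider margin gave 99 for lactation. Cells with at least 1000 genes gave 376 for day 12.5 and 3 for day 18.5. In LP/alveolar cells DESeq2 called 744 for day 18.5 and 1008 for lactation, no TMM scaling gave 340 and 10587, no filter gave 2930, 1021 and 1532 in the 3 comparisons, and the wider margin gave 300 for lactation, against 1635, 135 and 485. Over the libraries left out, the basal counts were 1 to 782, 0 to 202 and 0 to 319, and the LP/alveolar counts 81 to 2587, 1 to 1098 and 26 to 1230. A library left alone in its stage was assumed to vary like the others. The cause of these differences was not tested. The labels name libraries by letters, but the study's sample table numbers them within each stage. A replicate block on these numbers, chosen after seeing the data, gave 86, 1 and 162 basal and 857, 143 and 423 LP/alveolar calls. Deviations of same-numbered libraries from their stage means correlated at -0.19 to 0.17 in basal and -0.13 to 0.12 in LP/alveolar cells. The correlation was over 0.1 in 4 and 2 of 12 pairs. In a stage of 2 libraries the deviations mirror each other, so these pairs are not independent. They cannot decide whether same-numbered libraries were handled together.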
